A study of Caenorhabditis elegans with 2 samples.

Results

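Candidate binding regions of the homeodomain protein ALR-1 that lay far from protein-coding genes were described in whole L2 larvae of Caenorhabditis elegans. The regions were those of the pooled candidate list whose point, the single position that the deposited list gives for each region, lay in no protein-coding gene body and more than 3000 bp from every protein-coding transcript start. Regions overlapping tRNA, rRNA, snRNA or snoRNA genes were left out, which removed 30 regions that otherwise met the rule. This gave 1345 distal intergenic regions among 12996 pooled candidates (10.3%), chosen by position alone.

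The measurements were chromatin immunoprecipitation with sequencing (ChIP-seq), which recovers and sequences the DNA that a chosen protein is attached to. ALR-1 carried an eGFP tag and came from wgIs200, an integrated transgene in strain OP200, whose animals also carry the unc-119(ed3) allele on chromosome III. All animals were L2 larvae of mixed sex and unstated age, in 2 biological replicates that form 1 group, and no library of another genotype or of input DNA was analysed here. The transgene carries alr-1, so reads from that locus can come from the transgene or from the chromosome. In whole larvae, binding in few cells and weak binding in many cells cannot be told apart.

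ALR-1 belongs to the paired-like homeodomain proteins, a family related to Drosophila Aristaless, and is known for roles in the differentiation of sensory and motor neurons of the worm. Homeodomains bind short AT-rich sequences with a TAAT core, and pairs of such cores form sites for homeodomain dimers. The worm genome is compact, so much of its regulatory sequence lies just upstream of genes, and long intergenic gaps are often found beside genes for developmental regulators.

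The authors' pooled list held regions of 320 bp called on both replicates together, and the optimal list held the 103 of them that passed the authors' threshold on the irreproducible discovery rate (IDR), which asks whether a region ranks alike in repeated experiments. Candidate lists contain background regions by design, so a candidate is not a called peak. Replicate 1 had 5071 regions of 390 bp, of which 481 (9.49%) were distal, and replicate 2 had 7568 of 304 bp, of which 873 (11.5%) were distal. Each region has the authors' signal value, on a scale that is not stated, and these values were compared within a list only. The −log10 q-values had a ceiling of 2.90, reached by 402 pooled regions, 44 of them distal. Read depth is unknown because the lists give no read counts. The other pooled candidates comprised 5009 near intergenic regions, which lay outside gene bodies but within 3000 bp of a start, 2721 intronic regions outside promoters, 2143 regions in promoters inside a gene body, 1523 exonic regions and 255 regions at small RNA genes. The 255 were left out of every comparison, and all other candidates are the remaining 11396 regions.

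Sequences of the distal regions are shown first for the 3 IDR peaks upstream of alr-1, which made up 3 of the 12 distal IDR peaks. Each run gives the point and 100 bases on either side of it, on the plus strand of WBcel235 (the sequence of ce11) as held by RefSeq, 5′ to 3′. Capitals mark TAAT and its reverse complement ATTA. The windows are X:11135085-11135285, X:11137587-11137787 and X:11129164-11129364, in order of pooled signal. They held 2, 0 and 1 of these cores, and no window held TAATTA. Cores are given for the printed windows only, so whether these counts are high or low was not tested.
alr-1, rank 37: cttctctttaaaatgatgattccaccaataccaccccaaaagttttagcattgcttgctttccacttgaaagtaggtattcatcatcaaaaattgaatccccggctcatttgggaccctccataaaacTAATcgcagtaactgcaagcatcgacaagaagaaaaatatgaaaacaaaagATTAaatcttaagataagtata
alr-1, rank 55: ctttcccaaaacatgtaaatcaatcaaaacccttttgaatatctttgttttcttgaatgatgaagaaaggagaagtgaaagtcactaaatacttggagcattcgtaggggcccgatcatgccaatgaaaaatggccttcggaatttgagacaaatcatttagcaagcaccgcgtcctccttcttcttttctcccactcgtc
alr-1, rank 84: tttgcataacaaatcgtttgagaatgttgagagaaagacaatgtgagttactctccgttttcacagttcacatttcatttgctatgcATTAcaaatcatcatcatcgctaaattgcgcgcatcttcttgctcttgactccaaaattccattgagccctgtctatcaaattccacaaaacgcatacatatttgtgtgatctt

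A further 5 windows, which differ in base composition and in core content, come from other distal regions described here. The strongest distal region, nearest to gtr-1 (X:806629-806829), held 5 cores, and the IDR peak upstream of apl-1 (X:5121928-5122128) held 2. The region 229 bp upstream of the microRNA gene cel-mir-52 (IV:14033679-14033879) held none, and 62.2% of its bases were G or C. The region between the Hox genes lin-39 and ceh-13 (III:7544348-7544548) held 2. The region of rank 154 beside C30E1.4 (X:16930741-16930941) was the strongest of the distal regions with TAATTA, the palindrome in which TAAT and ATTA overlap, and had 29.9% GC.
gtr-1, rank 20: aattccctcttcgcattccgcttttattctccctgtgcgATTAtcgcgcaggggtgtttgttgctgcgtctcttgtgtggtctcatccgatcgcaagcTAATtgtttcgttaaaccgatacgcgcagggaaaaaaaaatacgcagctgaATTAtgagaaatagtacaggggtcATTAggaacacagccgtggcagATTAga
apl-1, rank 76: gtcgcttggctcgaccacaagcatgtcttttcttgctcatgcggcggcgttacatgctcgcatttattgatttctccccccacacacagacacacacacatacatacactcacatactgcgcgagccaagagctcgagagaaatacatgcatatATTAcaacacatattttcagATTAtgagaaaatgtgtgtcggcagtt
Y37A1B.7, rank 106: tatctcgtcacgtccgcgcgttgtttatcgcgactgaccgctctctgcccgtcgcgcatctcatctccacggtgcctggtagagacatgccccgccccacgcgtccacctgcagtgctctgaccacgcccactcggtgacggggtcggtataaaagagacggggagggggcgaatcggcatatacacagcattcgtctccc
lin-39, rank 413: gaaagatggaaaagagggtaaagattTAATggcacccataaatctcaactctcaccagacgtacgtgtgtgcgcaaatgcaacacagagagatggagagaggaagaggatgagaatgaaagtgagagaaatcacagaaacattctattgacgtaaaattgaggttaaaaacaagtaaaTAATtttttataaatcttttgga
C30E1.4, rank 154: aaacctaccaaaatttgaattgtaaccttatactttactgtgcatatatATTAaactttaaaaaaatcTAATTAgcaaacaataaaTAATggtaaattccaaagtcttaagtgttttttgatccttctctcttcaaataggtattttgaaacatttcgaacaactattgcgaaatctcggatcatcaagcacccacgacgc

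The distal class held 12 IDR peaks, or 0.892% of its regions (95% interval 0.462 to 1.55), where 0.793% of all pooled candidates were IDR peaks. Their pooled signals ran from 21.4 to 29.3, with a median of 26.0, and the 89 IDR peaks of the other classes outside small RNA genes had a median of 24.7 and a maximum of 49.8. Of the 12, 8 lay on chromosome X (66.7%), against 19 of the 89 others (21.3%), a difference noticed in the data and not tested. Among the 8 were the 3 peaks upstream of alr-1, a gene that the transgene also carries. Of all candidates, X held 33.8% of the distal regions and 22.7% of the others. In both replicates, 11 of the 12 overlapped a region, against 72 of the 89 others (80.9%). In the window of 100 bp either side of the point, GC content averaged 43.9% ± 7.40 (SD over 12 regions) for distal IDR peaks and 43.9% ± 5.76 for the 89 others, both above the mean of all distal candidates (38.3% ± 6.56, SD over 1345).

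The strongest distal region (X:806569-806888, signal 29.3, rank 20) was 3951 bp downstream of the start of gtr-1, and 262 bp past the 3′ end of F25E2.2. Its signals were 12.3 in replicate 1 and 6.71 in replicate 2, with ranks of 26 and 1096 in those lists. The region beside C30E1.4 (X:16929614-16929933, signal 28.2) had ranks farther apart, with a signal of 20.2 and rank 3 in replicate 1 and a signal of 5.62 and rank 1621 in replicate 2. The window around its point had 54.7% GC, and the point lay 140 bp upstream of the start of an annotated noncoding RNA gene, C30E1.9.

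Ranks were closer for the regions beside K02D3.1, W02H3.3 and apl-1. The region 6067 bp upstream of K02D3.1 (X:13700680-13700999, signal 27.7) had signals of 9.36 in replicate 1 and 11.9 in replicate 2. The region 4100 bp downstream of the W02H3.3 start (X:11093926-11094245, signal 26.4) had 11.4 in replicate 1 and 13.2 in replicate 2. The amyloid precursor-like gene apl-1 had its IDR peak 5162 bp upstream (X:5121868-5122187, signal 22.7), with 7.62 in replicate 1 and 14.8 in replicate 2. In the same gap between apl-1 and tbc-7, 7 distal regions were found, 3 of them in both replicates.

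Among further distal IDR peaks away from alr-1, the one beside T19C3.4 (III:623858-624177, signal 26.6) was the single peak with no region in replicate 1, and its rank in replicate 2 was 1285. The peak 5852 bp upstream of F54F12.1 (III:13061134-13061453, signal 22.9) ranked 236 and 471 in replicates 1 and 2. The peak beside T23E1.1 (IV:3160895-3161214, signal 21.4) lay 9694 bp downstream of that start and ranked 1826 and 1442. These ranks show that an IDR peak of the pooled list could stand well below the strongest regions of each replicate's own list.

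The 10 strongest distal regions that were not IDR peaks had pooled signals of 19.04 to 21.02, just under the lowest distal IDR peak. The first was the region near cel-mir-52, which had no replicate 1 region and ranked 54 in replicate 2 (signal 17.01). The aakg-3 region (X:2971512-2971831, signal 20.5) was the reverse case, with rank 5 in replicate 1 (signal 17.5) and no region in replicate 2. The genes aakg-3 and aakg-1 encode gamma subunits of the AMP-activated kinase. The region 8287 bp upstream of aakg-1 (III:12583528-12583847, signal 19.7) ranked 45 in replicate 1 and 3373 in replicate 2. The W07E11.1 region (X:10081083-10081402, signal 20.1) was again found in replicate 2 alone, at rank 46.

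The other 6 of these 10 had a region in both replicates. The region 5640 bp upstream of the ribosomal protein gene rps-25 had signals of 7.47 in replicate 1 and 9.33 in replicate 2 (IV:5953085-5953404). The trehalose 6-phosphate synthase gene tps-1 had a region 5765 bp upstream, with 9.21 in replicate 1 and 11.9 in replicate 2 (X:17480139-17480458). The region 3789 bp upstream of ilcr-1, which encodes an interleukin-17 receptor-like protein, had 9.08 in replicate 1 and 9.06 in replicate 2 (IV:14272511-14272830). The nuclear hormone receptor gene nhr-3 had a region 348 bp past its 3′ end, with signals of 10.2 in replicate 1 and 9.94 in replicate 2 (X:14561620-14561939). The C30E1.4 region of rank 154 and the region upstream of F26A3.4 ranked 15 and 21 in replicate 1, and 3131 and 854 in replicate 2.

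The gap upstream of alr-1 (X:11125621-11142970, 17350 bp, alr-1 on the minus strand) held 14 distal regions, and alr-1 was the nearest gene of 13. Of these 13, 3 were IDR peaks, 10 were in the top 25% of the pooled list by signal, and 10 had a region in both replicates. Neighbouring pooled regions can share a replicate region, and the 13 rested on 8 regions of replicate 1 and 11 of replicate 2. Their points lay 3644 to 12278 bp upstream of the alr-1 start.

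The IDR peak 9565 bp upstream (X:11135025-11135344) had signals of 26.5 in the pooled list, 7.55 in replicate 1 and 15.5 in replicate 2. The IDR peak at 12067 bp (X:11137527-11137846) had 24.4 in the pooled list, 3.97 in replicate 1 and 19.9 in replicate 2. The ranks lay far apart at this site, at 1231 in replicate 1 and 23 in replicate 2. The IDR peak at 3644 bp (X:11129104-11129423) had 21.97 in the pooled list, 9.80 in replicate 1 and 9.53 in replicate 2. Regions at 7728 and 6939 bp followed, with pooled signals of 18.6 and 17.9, and both were found in both replicates. The other 8 regions had pooled signals between 2.75 and 13.2. A replicate 2 region was present at all 13 sites and a replicate 1 region at 10. The part of the transgene in these signals was not tested.

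**Figure D1:**
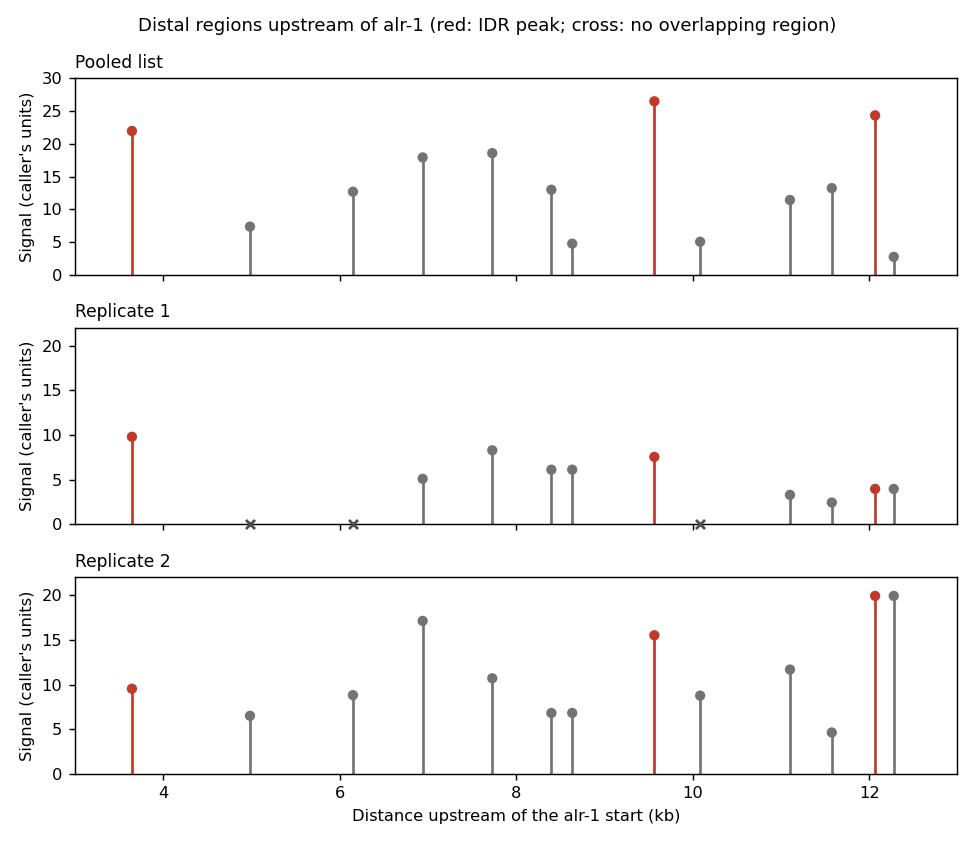
Signal of the 13 distal regions nearest to alr-1 (vertical axis, the caller's units) by distance upstream of the alr-1 start in kb (horizontal axis), in the pooled list and in each replicate. Red marks the 3 IDR peaks and a cross marks a site with no overlapping region: replicate 2 has a region at all 13 sites and replicate 1 at 10.

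Across the whole class, 409 distal regions (30.4%) overlapped a replicate 1 region and 701 (52.1%) a replicate 2 region, and 410 (30.5%) overlapped neither. A region in both was found for 175 (13.01%), where 13.3% of all pooled candidates had both. Those 175 had a median pooled signal of 9.58, against 3.86 for the 1170 without. By rank in the pooled list, the share was 91.7% of the distal regions at ranks 1 to 103, 60.0% at ranks 501 to 1000, 13.3% at ranks 2001 to 4000 and 2.75% at ranks 8001 to 12996. The pooled list was called on the same reads, so part of this relation is built in. Without the regions nearest to alr-1, 165 of 1332 (12.4%) had both, a setting added for this count after seeing the data.

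Signals in the replicates were weakly related across the 175 distal regions, with a Pearson correlation of 0.16 and a Spearman correlation of 0.19, given as a description. The points share the 2 libraries, and neighbouring points can share a region. Over the 1491 other candidates with both, they were 0.29 and 0.24. None of the 175 was among the 103 strongest regions of both replicates, and 16 of the 1491 were. Both counts are small shares of their classes, and the difference was not tested.

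**Figure D2:**
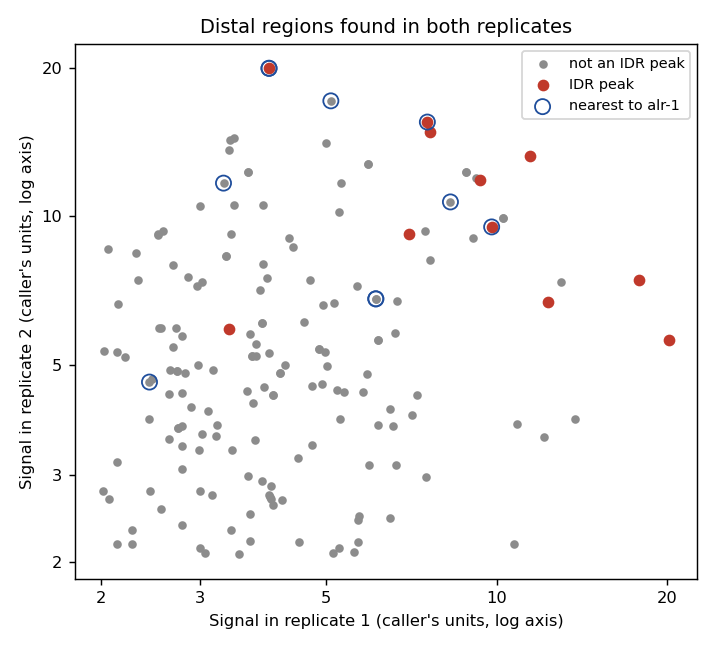
Signal in replicate 1 (horizontal) and replicate 2 (vertical), in the caller's units on log axes, for the 175 distal regions with a region in both replicates. Red points are the 11 IDR peaks among them and blue rings the 10 regions nearest to alr-1. No point is among the 103 strongest regions of both replicates, and the Spearman correlation is 0.19.

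Signal strength and replicate support were then compared with the other classes by Fisher's exact test, two-sided, with Benjamini-Hochberg adjustment over 18 tests. Regions are not biological replicates, so a p-value here is a statement on the lists and says nothing of how animals vary. Distal regions had a median pooled signal of 3.96 (range 2.54 to 29.3), and all other candidates 3.88 (2.53 to 49.8). In the top 25% of signal stood 333 distal regions (24.8%, 95% interval 22.5 to 27.2), where 25% of all pooled candidates stand by construction.

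Against near intergenic regions the distal class was weaker. Its share in the top 25% was 24.8%, against 33.1% of near intergenic regions (odds ratio 0.666, 95% interval 0.579 to 0.765, Fisher's exact adjusted p = 2.14e-08). Its share with a region in both replicates was 13.01%, against 16.55% of near intergenic regions (odds ratio 0.754, 0.629 to 0.901, Fisher's exact adjusted p = 0.00353). With replicate 1 alone both differences missed the test (odds ratios 0.903 and 0.940), and at a limit of 5000 bp the second did (0.788, Fisher's exact adjusted p = 0.142).

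Against intronic regions, 24.8% of distal and 21.1% of intronic regions were in the top 25% (odds ratio 1.23, 1.05 to 1.44, Fisher's exact adjusted p = 0.0186). This call was lost with either replicate alone (1.30 and 1.11), on the autosomes alone (1.17) and without the regions nearest to alr-1 (1.20). It turned round when gene bodies and starts of every biotype except piRNA counted (0.954). Shares with both replicates were 13.01% for distal and 11.83% for intronic regions (odds ratio 1.11, 0.910 to 1.36, Fisher's exact adjusted p = 0.467). That ratio reached the test with replicate 2 alone (1.30).

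Against all other candidates no difference in strength passed in the pooled list. The odds ratio was 1.006 (0.880 to 1.148, Fisher's exact adjusted p = 0.966) for the top 25% and 0.994 (0.835 to 1.18, Fisher's exact adjusted p = 0.966) for both replicates. With replicate 2 alone the second ratio turned and passed (1.19, Fisher's exact adjusted p = 0.00584). For IDR peaks it was 1.14 (0.568 to 2.11, Fisher's exact adjusted p = 0.704), for shares of 0.892% and 0.781%. The corresponding odds ratios were 0.796 against near intergenic (0.387 to 1.51, Fisher's exact adjusted p = 0.663) and 1.35 against intronic regions (0.592 to 2.98, Fisher's exact adjusted p = 0.564). With the 103 strongest regions of replicate 2 alone, the ratio against near intergenic regions passed (0.351, Fisher's exact adjusted p = 0.0123). With 12 distal IDR peaks the intervals are wide, and the 3 peaks at alr-1 decide the first ratio's side of 1, which was 0.874 without the regions nearest to alr-1. It was also below 1 with replicate 2 alone (0.468), on the autosomes alone (0.563) and with genes of every biotype except piRNA counted (0.442). Higher ratios came with replicate 1 alone (1.90, Fisher's exact adjusted p = 0.0773) and at a limit of 5000 bp (1.59, Fisher's exact adjusted p = 0.365).

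**Figure D3:**
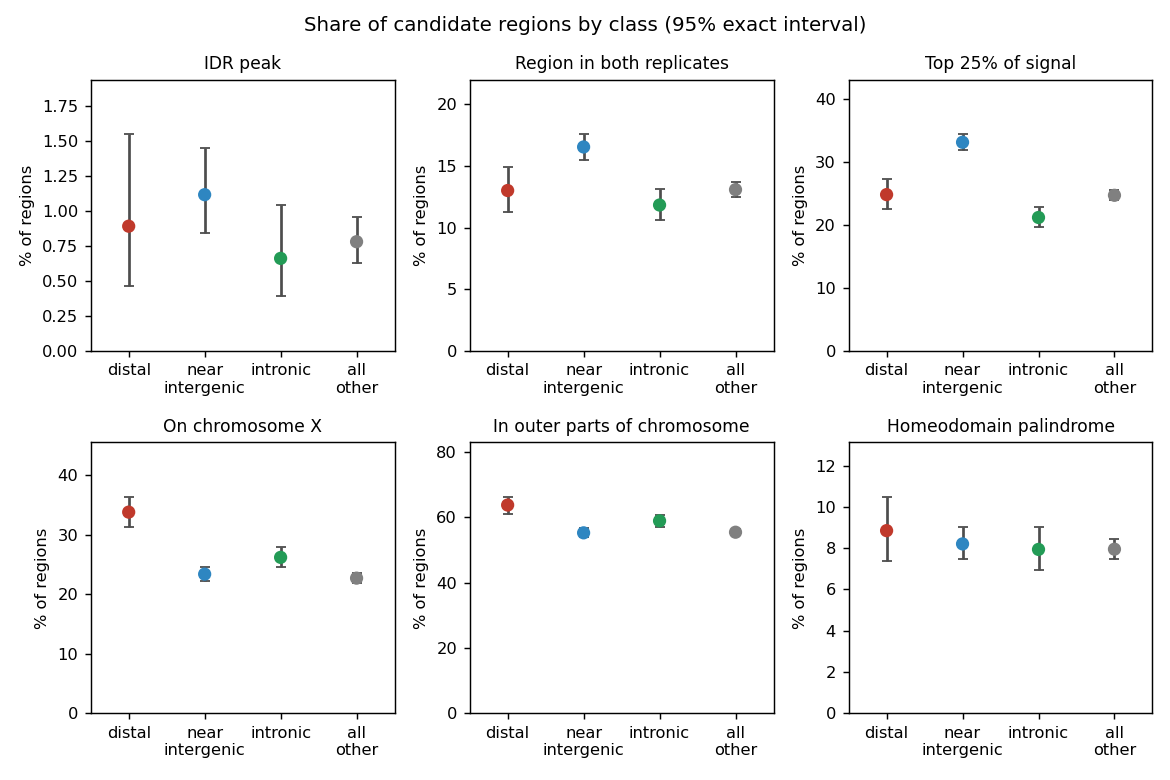
Share of regions (vertical axis, %) in the distal class and in the near intergenic, intronic and all other candidates, for 6 measures (the homeodomain palindrome is TAATTA within 100 bp of the point), with exact Clopper-Pearson 95% intervals. The distal class lies below near intergenic regions for the top 25% of signal (24.8% against 33.1%). It lies above the other groups for chromosome X (33.8% against 22.7% of all others), which holds 24.4% of distal sequence and 16.8% of the rest.

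At the distance limit itself the signals were alike. The 247 distal regions up to 500 bp beyond the limit had a median signal of 4.17 (2.54 to 25.7), and the 342 near intergenic regions up to 500 bp inside the 3000 bp limit had 3.93 (2.53 to 25.5).

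Chromosome X held 454 distal regions (33.8%, 95% interval 31.2 to 36.4), against 22.7% of all other candidates (odds ratio 1.74, 1.53 to 1.96, Fisher's exact adjusted p = 5.79e-17). The ratio was 1.67 against near intergenic regions (23.4%, Fisher's exact adjusted p = 2.81e-13) and 1.44 against intronic regions (26.2%, Fisher's exact adjusted p = 1.91e-06). In the replicates' own lists, 36.6% of the distal regions of replicate 1 and 36.8% of those of replicate 2 lay on X. Counting every gene biotype except piRNA ended the call, with ratios of 1.07, 0.971 and 0.943, and left 555 distal regions. Because the class is chosen by position, these tests cannot tell the placing of candidates from the placing of distal sequence.

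The amount of sequence that meets the distal rule differs between chromosomes, and X holds 24.4% of the 11.1 Mb of such sequence but 16.8% of the rest of the genome. Per Mb, X held 167 distal regions in distal sequence and 172 other candidates in other sequence. Chromosome IV had the lowest distal density, 83.8 per Mb, against 110 per Mb for other candidates there. The distal density was lower than that of other candidates on 5 chromosomes and higher on chromosome I, at 131 against 127 per Mb. Over the genome the densities were 121 and 128 per Mb. Candidates of both kinds were thus densest on X, and the distal density there was below the other one. For regions in both replicates the order on X was the reverse, with 26.9 distal per Mb and 24.2 other candidates per Mb, while on the other 5 chromosomes the distal density was the lower. Without the regions nearest to alr-1, a setting added after seeing the data, the X densities were 23.2 and 23.9 per Mb.

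**Figure D4:**
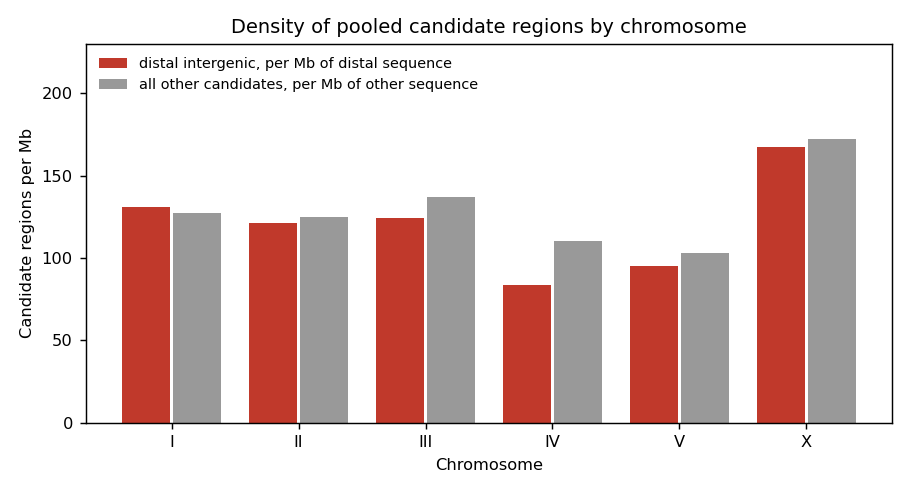
Pooled candidate regions per Mb (vertical axis) on each chromosome, for distal regions per Mb of sequence that meets the distal rule (red) and all other candidates per Mb of other sequence (grey). X is highest for both, at 167 and 172 per Mb, and IV is lowest for distal regions, at 83.8.

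The outer parts of the chromosomes, the first and the last of 3 equal parts, which correspond roughly to the gene-poorer arms of the autosomes, held 858 distal regions (63.8%), against 55.5% of all other candidates (odds ratio 1.41, 1.26 to 1.59, Fisher's exact adjusted p = 2.20e-08). The ratio was 1.43 against near intergenic regions (55.3%, Fisher's exact adjusted p = 6.84e-08) and 1.23 against intronic regions (58.9%, Fisher's exact adjusted p = 0.00677). The last of these missed the test at a limit of 2000 bp (1.09), with replicate 1 alone (1.11) and on the autosomes alone (1.13). The sequence itself is placed in the same way, since the outer parts hold 72.9% of the distal sequence and 65.9% of the rest. Both kinds of candidates were therefore less frequent in the outer parts than their sequence is.

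Distances to the nearest protein-coding start had a median of 4616 bp (quartiles 3664 and 6264) and a maximum of 29137 bp, and 59 regions lay over 10000 bp away. The point was upstream of its nearest start in 989 regions (73.5%), where 60.3% of distal sequence is upstream. Gaps between genes that diverge held 475 distal regions (35.3%, with 29.2% of the distal sequence), and gaps between genes on the same strand held 778 (57.8%, with 52.7%). Gaps between converging genes held 92 (6.84%), although 17.6% of distal sequence lies there. Distal regions were thus sparse between the 3′ ends of genes. Within 500 bp past a 3′ end were 55 regions (4.09%), where 5.27% of the distal sequence lies.

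Many distal regions shared a gap. They fell into 735 gaps, of which 445 held 1 region, and the 290 gaps with more held 900 regions (66.9%). In 21 gaps there were 6 or more, 167 in all. Pooled regions can also touch, and 99 distal regions shared bases with another pooled region. The gap between snt-1, a synaptotagmin gene, and egl-27, an MTA-like chromatin factor gene, held 15 regions in 18574 bp (II:6816434-6835007). The gap between F57G12.1 and cab-1 held 15 in 27973 bp (X:12171682-12199654), and that between T28C12.6 and the BCL11-type zinc finger gene bcl-11 held 13 in 19905 bp.

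By nearest gene, F57G12.1 had the most distal regions, 14, ahead of alr-1 with 13, egl-27 with 12, T28C12.6 with 7 and the aspartate aminotransferase gene got-2.2 with 6. The genes bcl-11 and dpsm-1 also had 6, with weaker best regions than got-2.2. Per kb of distal sequence nearest to each gene, the order was dpsm-1 (1.83), egl-27 (1.33), alr-1 (1.23), T28C12.6 (1.01), bcl-11 (0.863), F57G12.1 (0.834) and got-2.2 (0.720). Signals differed between these genes, given as a description. The alr-1 regions had a median signal of 13.003, against 5.08 for F57G12.1, 6.58 for egl-27, 5.82 for T28C12.6 and 3.69 for got-2.2. Regions in both replicates numbered 10 of 13 at alr-1, 1 of 14 at F57G12.1, 3 of 12 at egl-27, 0 of 7 at T28C12.6 and 2 of 6 at got-2.2.

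The rule measured distance from protein-coding starts, and noncoding genes were frequent near these points. A noncoding RNA gene overlapped 186 distal regions (13.8%) and 858 other candidates (7.53%), and a pseudogene overlapped 47 (3.49%) and 0.807% of the others. The point itself lay in a noncoding RNA gene in 86 distal regions (6.39%), where such genes cover 1.97% of distal sequence. Within 200 bp of a noncoding start, a distance chosen after seeing the data, lay 194 distal points (14.4%), where 6.36% of distal sequence lies. Among distal regions in both replicates the count was 40 of 175 (22.9%), and among distal IDR peaks it was 6 of 12. They included the peaks beside C30E1.4, T19C3.4 and apl-1 and the alr-1 peaks at 9565 and 12067 bp. Within 3000 bp of a noncoding gene lay 790 distal points (58.7%), where 52.2% of distal sequence lies, so most of the class is distal from protein-coding genes only.

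MicroRNA genes, whose short products repress messenger RNAs, had 19 distal regions within 1000 bp of their annotated start, beside 16 of 261 genes. These were 16 of the 87 microRNA genes (18.4%) with any distal sequence that near. The 19 made up 1.41% of the distal regions, where 0.811% of distal sequence lies within that distance, and 71 other candidates (0.623%) lay that near. The strongest was the region 229 bp upstream of cel-mir-52 (IV:14034008-14034107, plus strand), a member of the mir-51 family, and 3 further distal regions lay within 1000 bp of that start. The 4 signals were 21.0, 12.7, 7.37 and 3.04, and no single site had a region in both replicates. The region 707 bp downstream of the cel-mir-231 start (III:7545057-7545155, minus strand) had a signal of 14.5 and was found in both, with 2.85 in replicate 1 and 7.56 in replicate 2. It is the region upstream of lin-39 that is shown above.

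The other microRNA genes had weaker regions. Those at cel-mir-8209 (signal 10.2), cel-mir-79 (9.15) and cel-mir-2211 (8.05) were found in both replicates. The region 144 bp upstream of cel-mir-80 had 8.50 and replicate 2 support alone. At cel-mir-49 (5.20), cel-mir-241 (4.31), cel-mir-34 (4.32) and cel-mir-45 (3.82) a region was found in 1 replicate. The gene cel-mir-241 belongs to the let-7 family, and cel-mir-34 to a microRNA family conserved across animals.

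Homeobox genes, the family of alr-1, were compared next, by counting genes that were the nearest gene of a distal region among those that own any distal sequence. Of 45 such homeobox genes, 14 (31.1%) were nearest to a distal region, where 19.1% of all 4703 such protein-coding genes were. Nearest to a distal region found in both replicates were 5 homeobox genes (11.1%), where 2.81% of all such genes were. Homeobox genes own more distal sequence, with a median of 3089 bp against 1468 bp over all such genes. Per Mb of that sequence they had 205 distal regions, against 121 over all genes, and 139 without alr-1, a setting added for this list after seeing the data. Without alr-1 the counts were 13 of 44 genes (29.5%) and, for both replicates, 4 of 44 (9.09%).

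The 4 homeobox genes besides alr-1 with a region in both replicates each had 1 such region. The Otx-type gene ceh-37 had a signal of 16.97 (X:14194201-14194520), with 2.58 in replicate 1 and 9.36 in replicate 2. The mid-body Hox gene lin-39 and the anterior Hox gene ceh-13 share a divergent gap of 19027 bp with 3 distal regions. The region 7816 bp upstream of lin-39 had a signal of 14.5, and that 6656 bp upstream of ceh-13 (III:7548844-7549163) had 11.9, with 2.06 in replicate 1 and 8.58 in replicate 2. The region of nsy-7, a gene known for AWC neuron asymmetry, had 6.39 (IV:8091665-8091984), with 2.53 in replicate 1 and 5.94 in replicate 2. The posterior Hox genes egl-5 and mab-5 had 3 and 1 distal regions, with signals of at most 5.91, and none was in both replicates.

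Other families were read against the same shares of 19.1% and 2.81%. Axon guidance and adhesion genes had 18 of 54 members nearest to a distal region (33.3%), and 3 in both replicates. These were the Robo receptor gene sax-3, the dystroglycan gene dgn-1 and the kinase gene mig-15. Nuclear hormone receptors had 24 of 94 (25.5%), and 2 in both replicates, nhr-3 and nhr-71. The list of forkhead, T-box, bHLH and Sox factors had 8 of 33 (24.2%), with fkh-9, a forkhead gene, and mab-9, a T-box gene, in both.

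Lower shares were found for neuropeptide and insulin-like genes, with 10 of 60 (16.7%) and flp-19 in both replicates, for cuticle collagens, with 3 of 24 (12.5%), and for chemoreceptor families, with 12 of 262 (4.58%). No collagen or chemoreceptor gene had a region in both. Ribosomal protein genes had 2 of 6, rps-25 and rpl-35, each in both. The chemoreceptor genes own little distal sequence each, with a median of 843 bp, but their density was low too, at 37.6 regions per Mb. Densities were 188 per Mb for axon guidance and 196 for nuclear hormone receptors, against 121 over all genes. Below 121 were the forkhead list at 106, neuropeptides at 77.1, collagens at 44.5 and ribosomal proteins at 87.9. These counts describe the lists, and no list was tested.

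**Figure D5:**
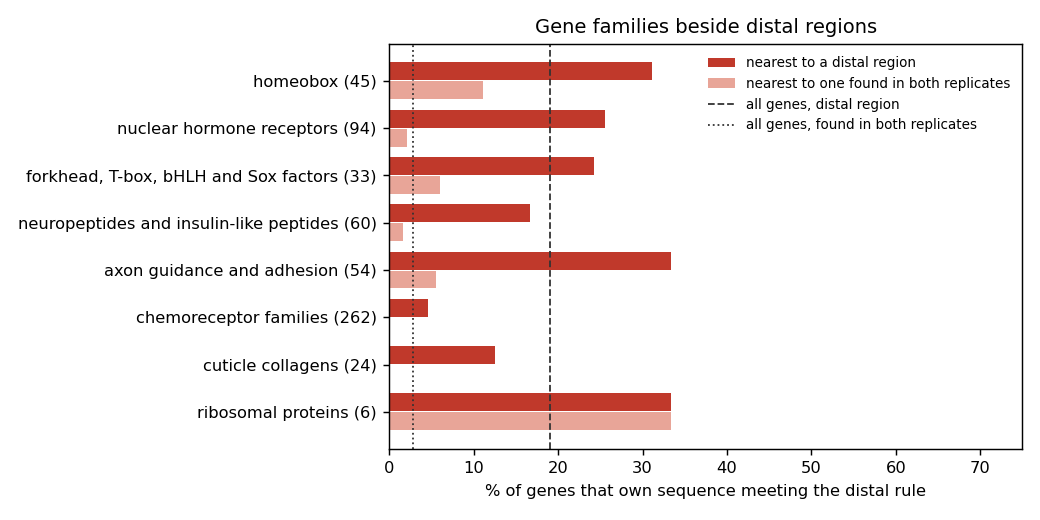
Share of genes (horizontal axis, %) that were the nearest gene of a distal region (red) or of a distal region found in both replicates (pale), for 8 gene families, with the number of genes that own distal sequence in brackets. Dashed and dotted lines are the same shares over all 4703 genes, 19.1% and 2.81%. Above both lines lie homeobox genes (31.1% and 11.1%), axon guidance and adhesion genes, the forkhead list and ribosomal proteins. Per Mb of distal sequence, the forkhead list (106 regions) and ribosomal proteins (87.9) lie below all genes (121). Chemoreceptor families (4.58% and 0), cuticle collagens and neuropeptides lie below both.

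TAATTA was found within 100 bp of the point in 119 distal regions (8.85%, 95% interval 7.38 to 10.5), against 7.95% of all other candidates (odds ratio 1.12, 0.912 to 1.38, Fisher's exact adjusted p = 0.467). The palindrome reads the same on both strands. Only this overlapping pair of cores was tested, and pairs set apart by other bases were not. The odds ratios of 1.09 against near intergenic regions (8.21%, Fisher's exact adjusted p = 0.564) and 1.13 against intronic regions (7.94%, Fisher's exact adjusted p = 0.498) missed the test as well. All 3 ratios were below 1 at a limit of 2000 bp (0.957, 0.894 and 0.978) and with replicate 2 alone (0.955, 0.975 and 0.986).

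The motif was also counted among the better supported regions. It was absent from all 12 distal IDR peaks, which are too few to set against the class share of 8.85%. Among the 175 distal regions in both replicates it was present in 9 (5.14%), against 6.04% of the 1491 other candidates in both. Distal regions with TAATTA had a median signal of 3.86, and those without had 3.998. Base composition moved with this, since GC content was 35.2% ± 5.88 (SD over 119 regions) with the motif and 38.6% ± 6.55 (SD over 1226) without, and its part was not tested. Of the 13 alr-1 regions 2 held TAATTA, at 8398 bp (signal 13.003) and 8634 bp (signal 4.76).

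Base composition and repeat content are given as a description. GC content in those windows averaged 38.3% ± 6.56 (SD over 1345 regions) in distal regions and 38.3% ± 6.55 (SD over 11396) in the others, where distal sequence as a whole has 34.4%. The soft-masked share of these windows, which marks repeats and low-complexity sequence, was 25.5% ± 19.3 in distal regions and 26.2% ± 20.1 in the others, where 42.1% of all distal sequence is masked. Distal candidates were thus richer in GC and poorer in masked bases than the sequence they were drawn from. Whether reads map less well to masked sequence was not tested.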

How the data were processed

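Per the deposited notes, the authors called candidate regions against a control on each replicate and on both together, and derived the optimal IDR list from these. The deposited signal values come from the authors' caller on an unstated scale, the deposited −log10 q-values follow the narrowPeak format, and the authors' point offset gives each region's point. The aligner, caller and threshold were not given in the sources used here. The ce11 lists were used, and the ce10 lists were not. Regions were placed with Ensembl release 115 genes on WBcel235, which is ce11, and sequence was read from RefSeq's WBcel235.

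From these lists, classes, nearest starts, overlaps of at least 1 bp and the motif within 100 bp of the point were computed. IDR peaks were matched by exact coordinates. A promoter began 1000 bp upstream of a start and ended 200 bp downstream. Distal sequence is all sequence that meets the distance rule, and each base was given to the gene of its nearest start. The top 25% began at the 75 percentile of pooled signal. Classes were compared by Fisher's exact test with exact conditional 95% intervals of the odds ratio, Benjamini-Hochberg adjusted over 18 tests with a threshold of 0.05. Shares have Clopper-Pearson intervals, which cover counting error only. With no read counts, depth and the precision it gives are unknown.

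Named were all distal IDR peaks, the 10 strongest other distal regions, their nearest genes (1 of these peaks is not reported here), the 5 genes with most distal regions, homeobox genes with a region in both replicates, up to 10 microRNA genes within 1000 bp, and alr-1. Members of other lists in both replicates, egl-5, mab-5, dpsm-1, bcl-11, the genes beside the fullest gaps and the genes past whose 3′ ends a region lay were not in this rule and were added with their values known. The members, gene lists and settings were chosen with earlier results of these data known. Alternatives changed the distance limit, the genes counted, small RNA regions, the replicates, the thresholds, the motif window and GC range, the alr-1 regions and X. The code was tested on simulated data. Tests ran in scipy 1.17.1 under Python 3.11.15, tables were handled with pandas 2.3.3 and numpy 2.4.6, and plots were drawn with matplotlib 3.10.9.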

Additional observations from a re-analysis of the deposited data

How the results depend on the processing

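Values are odds ratios of the distal class unless counts are named, and all settings were planned except the autosomes alone, which were added after seeing the data. Leaving out the alr-1 regions was planned for IDR, signal and position, and was added after seeing the data for the counts in both replicates and the homeobox list. No paired analysis was possible because both samples belong to 1 group. In replicate settings that replicate's own list, and its 103 strongest regions for the IDR list, were used, except that the share in both became the share in the remaining replicate. Where a value turned or crossed the threshold, the cause was not tested.

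At a limit of 2000 bp there were 2121 distal regions and 19 IDR peaks, both replicates against all others gave 1.04, outer parts against intronic 1.09, and TAATTA 0.957 against all others, 0.894 against near intergenic and 0.978 against intronic. At 5000 bp there were 572 regions and 7 IDR peaks, IDR against near intergenic gave 1.16, and both replicates gave 1.00 against all others and 0.788 against near intergenic. With bodies and starts of all biotypes except piRNA there were 555 regions and 2 IDR peaks. IDR then gave 0.442 against all others and 0.543 against intronic, both replicates 0.920 against intronic, the top 25% 0.773 against all others (Fisher's exact adjusted p = 0.0469) and 0.954 against intronic, and X 1.07, 0.971 and 0.943 against all others, near intergenic and intronic. With small RNA regions kept, both replicates against all others gave 1.03. The stricter IDR set gave 1.09 against near intergenic, and the 500 strongest regions, in place of the IDR list, passed the test with 0.715 against near intergenic and 1.60 against intronic. Without the alr-1 regions, IDR gave 0.874 and the top 25% 0.979 against all others, and the top 25% 1.20 against intronic. On autosomes there were 891 regions and 4 IDR peaks, IDR gave 0.563 against all others and 0.643 against intronic, both replicates 0.971 against intronic, the top 25% 0.941 against all others and 1.17 against intronic, and outer parts 1.13 against intronic.

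With replicate 2 alone, IDR against near intergenic (Fisher's exact adjusted p = 0.0123) and both replicates against all others (1.19, Fisher's exact adjusted p = 0.00584) passed the test. Leaving out each replicate in turn gave 481 to 873 regions and 6 to 17 distal regions among the strongest 103. Against all others, near intergenic and intronic regions, in that order, IDR ran from 0.468 to 1.90, 0.351 to 1.35 and 0.610 to 1.73. Both replicates ran from 0.983 to 1.19, 0.817 to 0.940 and 1.08 to 1.30, and the top 25% from 0.914 to 1.22, 0.718 to 0.903 and 1.11 to 1.30. X ran from 1.89 to 2.07, 1.85 to 1.91 and 1.56 to 1.77, outer parts from 1.30 to 1.38, 1.33 to 1.35 and 1.11 to 1.33, and TAATTA from 0.955 to 1.07, 0.975 to 1.01 and 0.986 to 1.11.

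Of the odds ratios under other settings, 124 kept their direction and their side of the threshold, and 29 changed direction. Some of the 29 also crossed the threshold. Of those that kept their direction, 11 no longer passed the test and 4 newly passed it. The lists give no read counts, 1 group was sequenced, and the pooled list is not independent of the replicate lists, so spread between animals was not measured. Nearest genes are by distance alone.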
